A study of Mus musculus with 8 samples.

Results

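A set of 9 genes of the insulin-like growth factor (IGF) and growth hormone axis were followed in mouse liver, namely the growth factor gene Igf1, the genes of its carrier proteins Igfals, Igfbp1, Igfbp2, Igfbp3 and Igfbp4, the growth hormone receptor gene Ghr, its signal transducer Stat5b and its feedback inhibitor Socs2. The members were named by symbol, and every array probe set that the platform annotation paired with exactly 1 of them was taken. This gave 9 of 12393 genes and 20 of 22690 probe sets. A probe set is a group of short probes on the array that together report 1 transcript region.

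The livers came from 4 TrxR1/Gsr-null mice and 4 wild-type (WT) mice, all female, 4 weeks old and of the C57BL/6J strain, harvested in the late morning. TrxR1 (gene Txnrd1) and glutathione reductase (gene Gsr) are the NADPH-dependent enzymes that keep cytosolic thioredoxin and glutathione reduced. The labels name no promoter or Cre driver, no deleted region and no cell type in which the genes are lost, and they call the samples biological replicates. The comparison asks how transcript levels in livers labelled as null for both reductases differ from those in WT livers, and in whole tissue fewer cells of a type and less RNA per cell cannot be told apart.

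Growth hormone acts on hepatocytes through its receptor and the transcription factor STAT5B, which switches on Igf1, Igfals and Socs2. The liver is the main source of circulating IGF-I, most of which travels in a complex with IGFBP-3 and the acid-labile subunit encoded by Igfals. IGFBP-1 and IGFBP-2 form smaller complexes, and insulin lowers transcription of Igfbp1 whereas the factor FoxO1 raises it.

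Values are log2 expression, and each array held 1 liver. Array medians lay between 3.56 and 3.78. Gsr was lower in TrxR1/Gsr-null livers at both of its probe sets, by -1.17 and -1.15 on the log2 scale. Txnrd1 was 4.31-fold higher at its detected probe set (adjusted p = 0.000156, limma), and since the deleted region is not given, that probe set does not check the label. WT 3 and WT 4 had narrower value distributions (interquartile ranges 3.97 and 3.74) than the other arrays (4.31 to 4.44). The 3′ minus 5′ log2 signal of the Actb control probes, a sign of RNA quality, was 1.76 in TrxR1/Gsr-null 3, 1.50 in WT 3 and 1.57 in WT 4, against 1.01 to 1.17 on the other 5 arrays. The part of these arrays in the results below was not tested beyond the fits given without them.

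Igfbp2 and Igfals were lower in TrxR1/Gsr-null than in WT livers, by 6.66-fold and 2.22-fold, and no member was higher. A gene is called here when limma's moderated test across all 7534 genes above a low-value limit gives a Benjamini-Hochberg adjusted p under 0.05. By that rule 2 of 9 members were lower, against 2.15% of all genes tested, and 0 of 9 were higher, against 4.47%. The members were chosen with earlier results of these data known, so these and the following shares are a description. Without adjustment 4 members were lower at p under 0.05 (Igfals, Igfbp1, Igfbp2 and Stat5b) and 0 higher, against 7.92% of all genes lower. The same 4 were called lower with the replicate number as a block, where 3.19% of all genes were. The counts over all genes were 162 lower and 337 higher, so that 67.5% of calls were higher. After a further quantile normalization they were 272 and 314, with 53.6% higher. All 9 members had a mean difference below 0, with a median of -0.55. Over all genes tested the median was 0.096, and 39.9% of differences lay below 0. All 7 tested hepatocyte markers, described below, were also below 0, with a median of -0.32. Relative to the median gene, the members ran from -2.83 (Igfbp2) to -0.28 (Ghr). In 2 of the 9 members every TrxR1/Gsr-null value lay below every WT value, which was so for 5.84% of all genes.

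**Figure D1:**
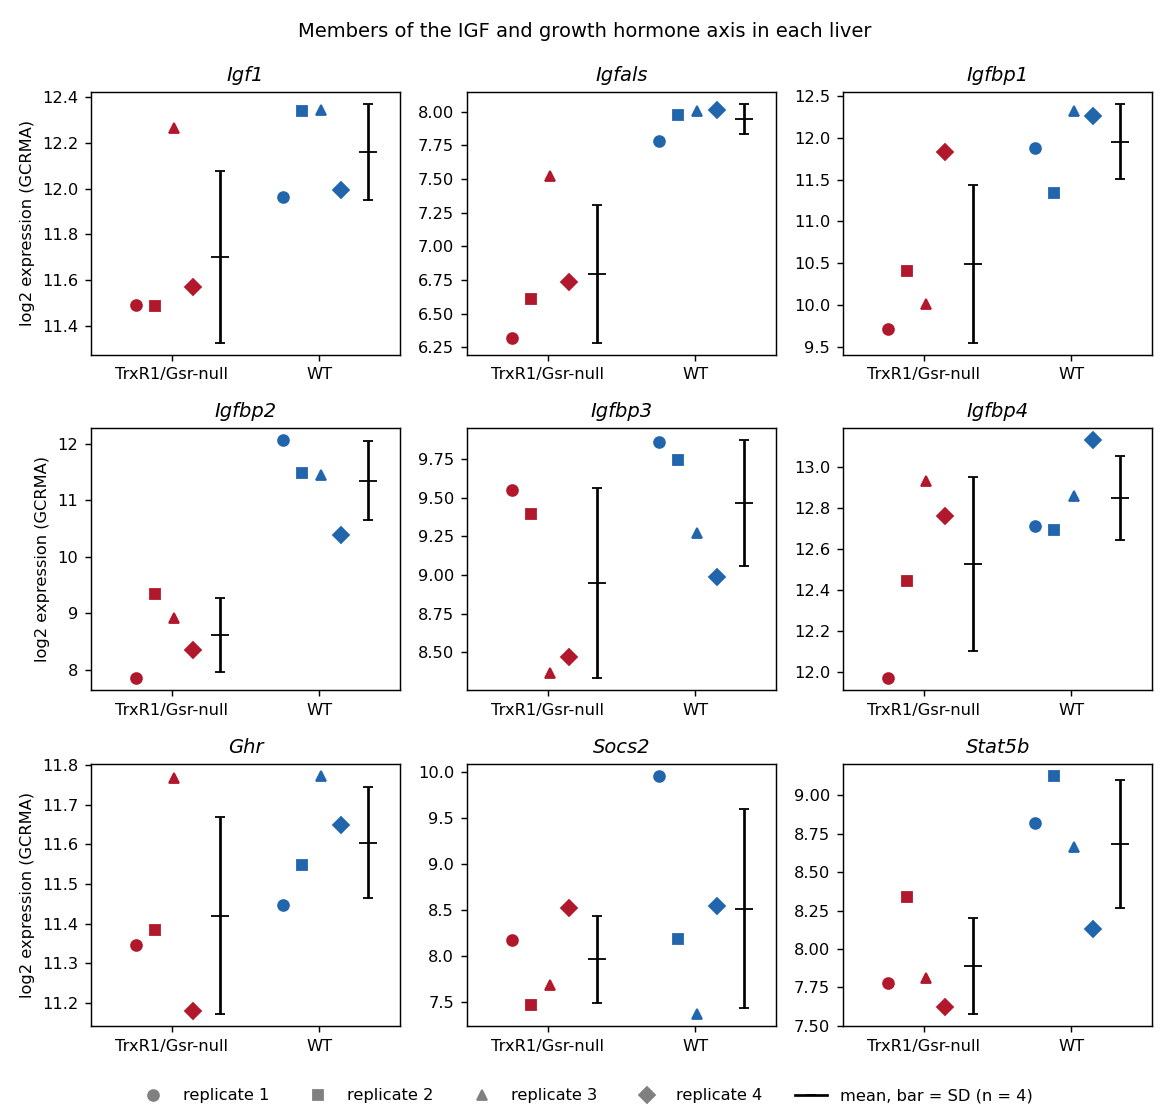
Log2 expression (vertical axis, a separate scale in each panel) of the 9 member genes in each of 4 TrxR1/Gsr-null livers (red, left) and 4 WT livers (blue, right); symbols mark the replicate number, and the bar gives the mean with SD (n = 4). Igfals and Igfbp2 show no overlap between the groups, and the other 7 genes overlap.

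The promoter windows of the members were searched for short sequence elements with a known link to the regulators named above. The sequences are RefSeq's for build GRCm38.p6 and span 250 bases before to 50 bases after an annotated start, with 13 windows for 8 of the 9 members (Socs2 was not matched). The 4 motifs were CAAAACA (the core of the insulin response element of Igfbp1), GTAAACA (bound by FoxO factors), TTCNNNGAA (the STAT5 element) and TGACNNNGC (the core of the antioxidant response element that Nrf2 binds). Both strands were searched, N stands for any base, and no match overlapped another. The windows with a match, which belong to Igfbp1, Igfals and Igfbp2, are shown with the match in capitals.
Igfbp1, chr11:7197537-7197836, plus strand: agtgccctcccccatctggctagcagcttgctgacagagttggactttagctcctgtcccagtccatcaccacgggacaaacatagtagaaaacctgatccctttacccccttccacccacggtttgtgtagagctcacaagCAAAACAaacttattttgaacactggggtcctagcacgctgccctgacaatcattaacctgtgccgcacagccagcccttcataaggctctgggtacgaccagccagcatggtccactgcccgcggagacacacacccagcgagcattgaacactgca
Igfals window 1, chr17:24877594-24877893, plus strand: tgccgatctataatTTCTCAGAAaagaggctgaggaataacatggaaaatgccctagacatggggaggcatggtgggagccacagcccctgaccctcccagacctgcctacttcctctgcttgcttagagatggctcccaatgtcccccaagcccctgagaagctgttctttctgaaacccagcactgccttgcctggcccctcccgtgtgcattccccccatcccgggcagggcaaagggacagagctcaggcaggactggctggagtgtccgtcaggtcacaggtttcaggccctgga
Igfals window 2, chr17:24877981-24878280, plus strand: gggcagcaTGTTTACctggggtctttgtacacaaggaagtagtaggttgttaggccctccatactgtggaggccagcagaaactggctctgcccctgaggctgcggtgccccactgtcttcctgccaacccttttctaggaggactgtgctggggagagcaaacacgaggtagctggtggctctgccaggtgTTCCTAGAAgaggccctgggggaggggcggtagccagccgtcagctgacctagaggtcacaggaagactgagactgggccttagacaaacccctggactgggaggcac
Igfbp2 window 2, chr1:72825137-72825436, plus strand: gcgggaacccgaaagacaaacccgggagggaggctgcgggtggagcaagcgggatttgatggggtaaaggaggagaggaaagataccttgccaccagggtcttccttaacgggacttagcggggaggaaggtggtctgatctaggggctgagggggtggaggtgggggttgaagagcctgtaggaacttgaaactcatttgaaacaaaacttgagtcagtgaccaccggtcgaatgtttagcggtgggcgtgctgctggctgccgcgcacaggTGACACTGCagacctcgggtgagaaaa

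In the Igfbp1 window the match to CAAAACA began at position -108 relative to the start. The windows of Igfals held a STAT5 element at -236 in the first and at -58 in the second. The second also held GTAAACA on the minus strand at -242, printed as its reverse complement TGTTTAC. The match in the second Igfbp2 window was to the antioxidant response core and lay 23 bases past the start. Over all 32851 windows, 6.28% held CAAAACA, 3.65% GTAAACA, 8.30% TTCNNNGAA and 12.4% TGACNNNGC. Of the 13 member windows, 1 held CAAAACA, 1 GTAAACA, 2 TTCNNNGAA and 1 TGACNNNGC. The windows of Igf1, Igfbp3, Igfbp4, Ghr and Stat5b held none of them. A match is a stretch of letters and was not tested as a binding site, and a window without one lacks only those letters.

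Igf1 encodes the growth factor itself and was read by 3 probe sets, none of which passed the test. At the probe set used for the gene (1437401_at) the log2 values were 11.49, 11.49, 12.26 and 11.57 in TrxR1/Gsr-null livers, against 11.96, 12.34, 12.34 and 11.99 in WT livers. TrxR1/Gsr-null 3 stood at the level of the higher WT livers and the other 3 lay below every WT liver. The difference was -0.45 (SE 0.22, 95% interval -0.95 to 0.04, adjusted p = 0.258, limma; exact two-sided permutation p = 0.0857, where 0.0286 is the smallest that 70 splits of 8 livers allow). These splits ignore any pairing by number, which the labels do not give. Exchanges within the 4 pairs could not go below 0.125, so such a test could not pass. The second probe set (1452014_a_at) gave 10.98, 11.14, 11.42 and 11.33 in TrxR1/Gsr-null livers, against 11.85, 11.75, 11.73 and 11.71 in WT livers. The groups did not overlap there, yet the difference of -0.54 missed the threshold (adjusted p = 0.0976, limma over 13776 probe sets). It passed with array weights (adjusted p = 0.0138), with a trended, robust prior (0.0372) and with the first 2 against the last 2 replicate numbers as a block (0.0482), though not with the replicate number as a block (0.108). The third (1419519_at) differed by -0.57 with overlapping groups (adjusted p = 0.143, limma).

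Igfals, which encodes the subunit that stabilises circulating IGF-I, was lower in TrxR1/Gsr-null livers. Its log2 values were 6.32, 6.61, 7.52 and 6.74 in TrxR1/Gsr-null livers, against 7.78, 7.98, 8.01 and 8.02 in WT livers. All TrxR1/Gsr-null livers lay below all WT livers, the WT livers were close together, and TrxR1/Gsr-null 3 was again the highest of its group. The difference was -1.15 (SE 0.25, 95% interval -1.70 to -0.59, 2.22-fold, adjusted p = 0.0233, limma; exact permutation p = 0.0286). The call was kept without TrxR1/Gsr-null 3 (-1.39, adjusted p = 0.00434) and without WT 1 (-1.20, adjusted p = 0.0333). It was lost when any of the other 6 livers was left out (TrxR1/Gsr-null 1, 2 or 4, or WT 2, 3 or 4), with limma adjusted p up to 0.0757 and differences between -1.14 and -0.99. Without both WT 3 and WT 4 it was -1.08 (adjusted p = 0.104, limma).

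Igfbp1 encodes a binding protein whose level in blood changes quickly with feeding and insulin. The values were 9.71, 10.41, 10.01 and 11.83 in TrxR1/Gsr-null livers, against 11.88, 11.35, 12.33 and 12.26 in WT livers. TrxR1/Gsr-null 4 lay within the WT range and the other 3 below it. The difference of -1.47 (SE 0.43, 95% interval -2.41 to -0.52, 2.76-fold) did not pass over all genes (adjusted p = 0.0703, limma; exact permutation p = 0.0571). With the replicate number as a block, which pairs same-numbered livers, it passed (adjusted p = 0.0364, limma), and it also passed without TrxR1/Gsr-null 4 (-1.91, adjusted p = 0.00807, limma).

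Igfbp2, which encodes a liver-made binding protein abundant around birth, showed the largest difference among the members. The values were 7.85, 9.34, 8.91 and 8.35 in TrxR1/Gsr-null livers, against 12.07, 11.49, 11.44 and 10.38 in WT livers. The highest TrxR1/Gsr-null liver was still below WT 4, the lowest of the WT livers. The difference was -2.74 (SE 0.40, 95% interval -3.62 to -1.86, 6.66-fold, adjusted p = 0.00318, limma; exact permutation p = 0.0286), which ranked 9 from the lowest of 7534 genes. It was called when each liver in turn was left out, with differences from -3.06 to -2.48. Its only probe set (1454159_a_at) is of a kind that can read several transcripts of a gene.

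Igfbp3, the main carrier of circulating IGF-I and in rat liver a product of non-hepatocyte cells, was not called. Its values were 9.55, 9.40, 8.36 and 8.47 in TrxR1/Gsr-null livers, against 9.86, 9.75, 9.27 and 8.99 in WT livers. Replicates 1 and 2 were higher than replicates 3 and 4 in both groups, and within each number the TrxR1/Gsr-null liver was the lower. The difference was -0.52 (SE 0.32, 95% interval -1.23 to 0.19, adjusted p = 0.373, limma).

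Igfbp4, whose product mostly restrains IGF action and is cleaved by the protease PAPP-A, was read by 6 probe sets with differences between -0.77 and -0.09. At the probe set used for the gene (1423756_s_at) the values were 11.97, 12.45, 12.93 and 12.76 in TrxR1/Gsr-null livers, against 12.71, 12.69, 12.86 and 13.13 in WT livers. TrxR1/Gsr-null 1 and 2 lay below every WT liver, while TrxR1/Gsr-null 3 and 4 lay within the WT range. The difference was -0.32 (SE 0.23, 95% interval -0.84 to 0.20, adjusted p = 0.449, limma). The groups did not overlap at 1421992_a_at (-0.30, adjusted p = 0.332, limma) and 1421991_a_at (-0.55, adjusted p = 0.109, limma), and the other 4 probe sets overlapped. None of the 6 was called.

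Ghr, the gene of the receptor that starts the pathway, differed little. Its values were 11.35, 11.39, 11.77 and 11.18 in TrxR1/Gsr-null livers, against 11.45, 11.55, 11.77 and 11.65 in WT livers. TrxR1/Gsr-null 3 was as high as the highest WT liver. The difference was -0.18 (SE 0.18, 95% interval -0.59 to 0.23, adjusted p = 0.602, limma), and the other probe sets gave -0.26 (1451501_a_at) and -0.06 (1451871_a_at), neither called. The interval reaches a fall of 0.59 on the log2 scale, so a fall of that size is not excluded.

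Stat5b, the gene of the transcription factor that carries the receptor's signal in hepatocytes, was not called, although 3 of 4 TrxR1/Gsr-null livers lay below every WT liver. Its values were 7.78, 8.34, 7.81 and 7.62 in TrxR1/Gsr-null livers, against 8.82, 9.13, 8.66 and 8.13 in WT livers. Only TrxR1/Gsr-null 2 and WT 4 crossed. The difference of -0.80 (SE 0.25, 95% interval -1.35 to -0.24, 1.74-fold) was not called (adjusted p = 0.0891, limma; exact permutation p = 0.0571). With the replicate number as a block it was (adjusted p = 0.0324, limma), as it was without WT 4 (-0.98, adjusted p = 0.0375, limma). The second probe set (1422102_a_at) did not pass the low-value filter, at 2.78 to 3.04 in TrxR1/Gsr-null livers and 2.49 to 3.15 in WT livers, with a difference of -0.01.

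Socs2, a target of STAT5 whose product dampens growth hormone receptor signalling, varied most among WT livers. At the probe set used for the gene (1418507_s_at) the values were 8.18, 7.47, 7.69 and 8.52 in TrxR1/Gsr-null livers, against 9.96, 8.19, 7.37 and 8.54 in WT livers. WT 1 was far above the rest and WT 3 below all 4 TrxR1/Gsr-null livers. The difference was -0.55 (SE 0.48, 95% interval -1.61 to 0.51, adjusted p = 0.534, limma). Without WT 1 it was -0.07 and without WT 3 it was -0.93. The second probe set (1449109_at) had 6.90, 6.67, 7.64 and 8.25 in TrxR1/Gsr-null livers, against 9.91, 7.96, 7.89 and 8.61 in WT livers. Only TrxR1/Gsr-null 4 reached into the WT range there, and its difference of -1.23 was not called (adjusted p = 0.176, limma).

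Across probe sets, 20 of 20 differences were below 0 and 2 of the 19 above the low-value limit were called lower, against 1.64% of 13776 probe sets. In the fit blocked by replicate number 4 of the 19 were, those of Igfals, Igfbp1, Igfbp2 and Stat5b, against 2.53% of all probe sets in that fit. In 5 of those 19 all TrxR1/Gsr-null values lay below all WT values, against 4.91% of all. The 5 belonged to Igf1, Igfals, Igfbp2 and, for a pair of probe sets, Igfbp4. Probe sets of 1 gene share its RNA and are not independent.

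**Figure D2:**
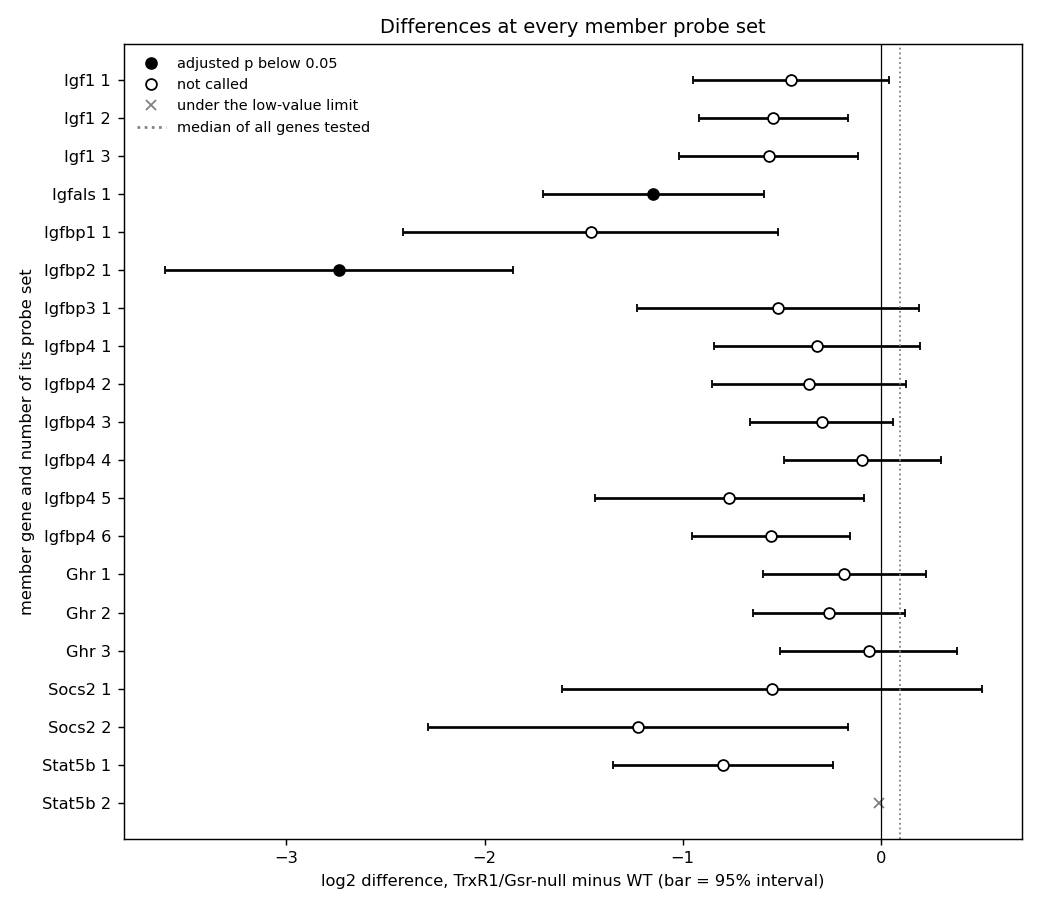
Log2 difference, TrxR1/Gsr-null minus WT (horizontal axis), at each of the 20 member probe sets, with the 95% interval from limma as the bar (4 livers per group); filled points have an adjusted p under 0.05, the cross lies under the low-value limit, and the dotted line is the median of all genes tested (0.096). Every point lies left of 0, and the filled points are Igfals and Igfbp2.

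The members did not mark the same TrxR1/Gsr-null livers. TrxR1/Gsr-null 3 was the highest of its group for 4 members (Igf1, Igfals, Igfbp4 and Ghr), and TrxR1/Gsr-null 1 the lowest for 4 (Igfals, Igfbp1, Igfbp2 and Igfbp4). TrxR1/Gsr-null 4 was the highest for Igfbp1 and Socs2. Of the 9 members, 8, 9, 6 and 8 lay below the WT mean in TrxR1/Gsr-null 1 to 4. TrxR1/Gsr-null 3 was also the array with the largest 3′ minus 5′ Actb signal, whose part was not tested.

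**Figure D3:**
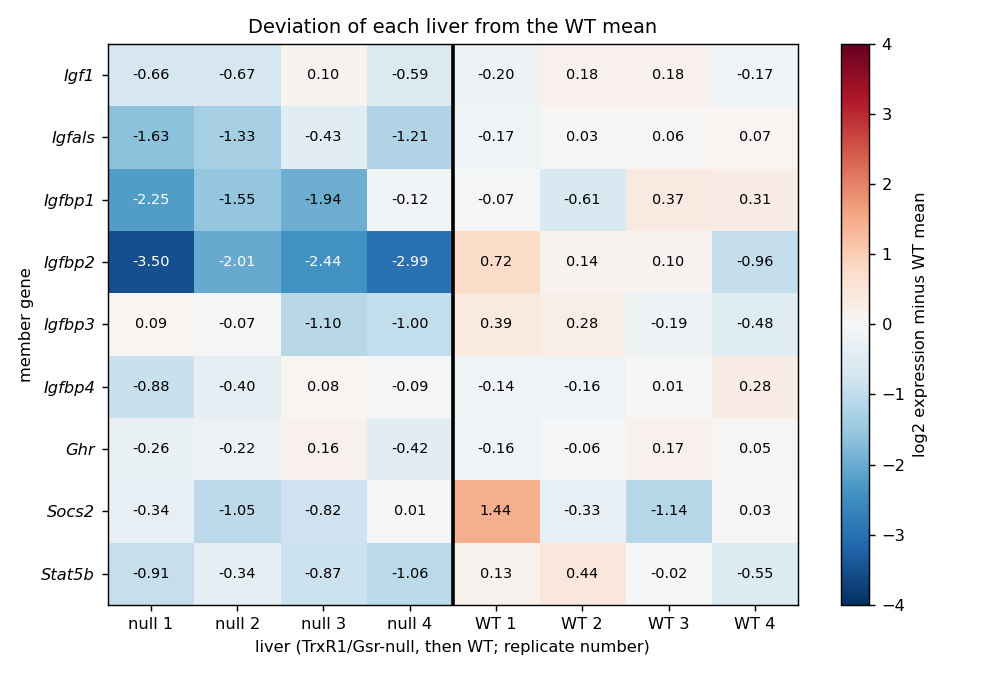
Log2 expression of each member (rows) in each liver (columns, TrxR1/Gsr-null left of the line and WT right of it) minus that member's WT mean, printed in the cell and shaded from blue (below) to red (above). Igfbp2 stands at -3.50 to -2.01 in the 4 TrxR1/Gsr-null livers, while Igfbp1 is close to it in TrxR1/Gsr-null 4 (-0.12).

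Genes next to the members on the chromosome were examined because several of the members are neighbours. Igfbp1 and Igfbp3 lie side by side on chromosome 11, and Igfbp2 next to Igfbp5 on chromosome 1. Among the 20 nearest tested genes, 10 on each side, 0 were called for Igfals. Likewise 0 were called for Igfbp4 and Stat5b, and 0 of the 11 found for Ghr. Around Igfbp2 only Ctdsp1 was called, and it was lower. Around Igfbp1 and Igfbp3 the called genes were Egfr (lower) and Ddc (higher), around Igf1 Chpt1 (higher), and around Socs2 Hal (lower) and Kitl (higher). Over all genes tested, 2.15% were called lower and 4.47% higher. These neighbours are named after their values were seen.

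For the called members, the tested genes with the most similar profile were found by the root mean square difference between log2 profiles over the 8 livers, each centred on its own WT mean. For Igfals these were Bmp1 (0.113), Pgpep1 (0.159) and Cmah (0.179), with TrxR1/Gsr-null minus WT differences of -1.09, -1.16 and -1.29. In each of the 3, TrxR1/Gsr-null 3 was the highest of its group, as it was for Igfals. For Igfbp2 the nearest were Rps4l (0.481), H2-D1 (0.715) and Defb1 (0.740), with differences of -2.47, -2.08 and -3.24. H2-D1 belongs to a family of closely similar genes whose RNA its probes may share. Over the mean of probe sets Bmp1 differed by -0.40 and H2-D1 by -0.89, and neither was called (adjusted p = 0.183 and 0.130, limma). The calls of Bmp1 and of Pgpep1 were each kept in 2 of 8 fits with 1 liver left out. The nearest genes were selected for their likeness, so their differences are a description.

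Other genes of growth hormone receptor signalling stayed under the threshold. Of 15 listed, 11 were tested, 0 were called either way by limma (1 was lower at an unadjusted p under 0.05), and the median difference was -0.14. Jak2, the receptor's kinase, averaged 5.61 ± 0.41 in TrxR1/Gsr-null livers and 5.57 ± 0.29 in WT livers (SD, n = 4 each; difference 0.04), a sign that turned under further scaling. Stat5a, the close relative of Stat5b, averaged 3.29 ± 0.12 in TrxR1/Gsr-null livers and 3.59 ± 0.46 in WT livers (SD, n = 4 each; difference -0.30, adjusted p = 0.486, limma).

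Of the 13 listed other IGF ligands, receptors, binding proteins and adaptors, 6 were tested, 1 was called lower and 0 higher (limma; 2 and 2 at an unadjusted p under 0.05), and the median was -0.52. A further gene was called higher once the replicate number was a block (1 of 6). Over the mean of probe sets 1 of 6 was also called higher, and with array weights 2 of 6. The 2 higher genes, named after their values were seen, were Igf2r (0.88, adjusted p = 0.0509, limma) and Grb10 (0.83, adjusted p = 0.0654, limma). Their groups did not overlap. Lower beside Grb14 was Igfbp7 (-0.63, adjusted p = 0.122, limma), likewise without overlap. Grb14, an adaptor that binds and inhibits the insulin receptor, had values of 7.82, 7.97, 8.66 and 8.30 in TrxR1/Gsr-null livers, against 9.98, 9.87, 9.56 and 9.21 in WT livers. The groups did not overlap, and the difference was -1.47 (SE 0.25, adjusted p = 0.00654, limma). Igf1r, the IGF-I receptor gene, was low in liver, at 3.16 to 3.43 in TrxR1/Gsr-null livers and 3.35 to 4.44 in WT livers (-0.41, adjusted p = 0.366, limma). Igf2 lay under the low-value limit of 3.38 apart from WT 1, at 2.47 to 3.08 in TrxR1/Gsr-null livers and 2.25, 2.30, 2.70 and 5.16 in WT livers. Igfbp5, the neighbour of Igfbp2 and named after its values were seen, was higher in replicates 3 and 4 than in 1 and 2 in both groups. It had 3.50, 3.45, 5.14 and 5.05 in TrxR1/Gsr-null livers and 3.34, 3.50, 8.74 and 9.69 in WT livers. In replicates 3 and 4 the TrxR1/Gsr-null livers lay below the WT livers, and the difference of -2.03 was not called (adjusted p = 0.407, limma).

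Among 15 tested genes of insulin signalling and of the FoxO1 program, 2 were called lower and 0 higher (limma; 6 and 1 at an unadjusted p under 0.05), and the median was -0.39. With the replicate number as a block 3 were called lower, and without WT 3 and WT 4 the count was 0. Of the 15 differences 10 lay below 0 and 5 above. The 1 higher gene at an unadjusted p under 0.05, named after its values were seen, was Pdk4. It differed by 1.85 without overlap of the groups (adjusted p = 0.0562, limma). Pck1, which encodes a rate-limiting enzyme of gluconeogenesis, had 10.16, 9.72, 10.56 and 10.71 in TrxR1/Gsr-null livers, against 11.30, 11.99, 11.71 and 11.07 in WT livers. Its groups did not overlap (-1.23, SE 0.28, adjusted p = 0.0270, limma), but over the mean of its probe sets the difference was -0.61 and not called (adjusted p = 0.0695, limma). Irs2, a docking protein of the insulin receptor, had 3.21, 3.25, 3.70 and 4.44 in TrxR1/Gsr-null livers, against 5.06, 4.37, 4.92 and 5.23 in WT livers. TrxR1/Gsr-null 4 just overlapped WT 2 (-1.24, SE 0.30, adjusted p = 0.0356, limma). TrxR1/Gsr-null 1 and 2 lay under the low-value limit of 3.38, and without the low-value filter the call was lost (adjusted p = 0.0513, limma). Irs1, its relative, averaged 8.43 ± 0.60 in TrxR1/Gsr-null livers and 8.24 ± 0.63 in WT livers (SD, n = 4 each; adjusted p = 0.816, limma). The Pck1 call was lost without TrxR1/Gsr-null 1 or 2 or WT 2 or 3, and the Irs2 call without TrxR1/Gsr-null 1, 2 or 3 or WT 1, 3 or 4, with adjusted p (limma) up to 0.0788 and 0.108.

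Of 10 tested liver genes linked to growth hormone, 2 were called lower and 0 higher (limma; 3 and 2 at an unadjusted p under 0.05). The median was -0.49. The list was not split by the direction in which growth hormone acts, so its counts and median do not give that direction. The 2 higher genes, named after their values were seen, were Fgf21 (3.19, WT livers at 1.66 to 3.82) and Cux2 (1.17). Their groups did not overlap. Blocking by replicate number added 1 call higher. Klf10, a transcription factor gene, averaged 6.33 ± 0.54 in TrxR1/Gsr-null livers and 8.26 ± 0.37 in WT livers (SD, n = 4 each; -1.94, SE 0.29, adjusted p = 0.00413, limma). Egfr, the epidermal growth factor receptor gene, averaged 7.90 ± 0.40 in TrxR1/Gsr-null livers and 9.49 ± 0.63 in WT livers (SD, n = 4 each; -1.59, SE 0.32, adjusted p = 0.0174, limma). The groups did not overlap for either gene. The Egfr call was lost without WT 3 or TrxR1/Gsr-null 1, 2 or 4, with adjusted p (limma) up to 0.0581. Over the mean of its probe sets Egfr differed by -0.67 and was not called (adjusted p = 0.122, limma). Cish, a STAT5-induced inhibitor of the same family as Socs2, had 3.45, 4.12, 3.35 and 4.76 in TrxR1/Gsr-null livers, against 4.25, 4.17, 4.10 and 5.12 in WT livers, and the groups overlapped (-0.49, adjusted p = 0.435, limma). Bcl6, a repressor that competes at STAT5 sites, had 7.26, 6.24, 7.08 and 5.70 in TrxR1/Gsr-null livers, against 8.49, 9.05, 8.22 and 5.45 in WT livers. WT 4 was the lowest of all 8, and the difference of -1.23 was called only among fits that left out or down-weighted livers, such as that without WT 4 (-2.01, adjusted p = 0.0184, limma).

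The pattern of growth hormone release differs between the sexes and gives liver many of its sex differences in adult mice. Genes with a known sex bias were therefore described in these 4-week-old females. Of 13 tested genes higher in adult females, 0 were called in either direction by limma (3 were higher and 2 lower at an unadjusted p under 0.05), with a median of 0.25. Blocking by replicate number gave 1 call higher and 1 lower. Cyp2b9, a female-biased P450, averaged 10.15 ± 0.24 in TrxR1/Gsr-null livers and 10.76 ± 0.49 in WT livers (SD, n = 4 each; -0.60, adjusted p = 0.196, limma), and without WT 1 it was called (-0.83, adjusted p = 0.0463). Cyp2b13, a close relative, averaged 7.96 ± 0.75 in TrxR1/Gsr-null livers and 7.55 ± 1.13 in WT livers (SD, n = 4 each; 0.41, adjusted p = 0.703, limma).

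Of 11 tested genes higher in adult males, 3 were called higher and 0 lower (limma; 4 and 1 at an unadjusted p under 0.05), while the median was -0.38. The fit blocked by replicate number added 1 call lower. With array weights 4 were called higher and 4 lower, and in replicates 1 and 2 alone 3 and 3. Of the 11 differences 7 lay below 0 and 4 above. Slco1a1, the 1 lower gene at an unadjusted p under 0.05, was named after its values were seen. Its difference was the lowest of the list (-2.94, adjusted p = 0.160, limma), and its groups overlapped. Cyp7b1, an oxysterol hydroxylase gene, had 10.25, 10.51, 10.43 and 10.25 in TrxR1/Gsr-null livers, against 7.59, 8.33, 8.47 and 7.46 in WT livers (2.40, SE 0.25, adjusted p = 0.000457, limma). Cyp4a12a, a fatty acid hydroxylase gene, had 4.65, 4.85, 5.54 and 7.55 in TrxR1/Gsr-null livers, against 1.59, 1.74, 2.52 and 2.91 in WT livers, all of which lay under the low-value limit (adjusted p = 0.00663, limma). With WT set at that limit, Cyp4a12a was at least 4.83-fold higher. Ugt2b1, a glucuronosyltransferase gene, averaged 12.52 ± 0.23 in TrxR1/Gsr-null livers and 11.54 ± 0.26 in WT livers (SD, n = 4 each; 0.98, SE 0.20, adjusted p = 0.0180, limma), and its call was lost without TrxR1/Gsr-null 4 (adjusted p = 0.0550). None of the 3 had overlapping groups, and the probes of Cyp4a12a and Ugt2b1 may share RNA with close relatives. Mup3, a major urinary protein gene whose family is made of near-identical copies, averaged 11.43 ± 0.44 in TrxR1/Gsr-null livers and 12.32 ± 0.94 in WT livers (SD, n = 4 each; -0.89, adjusted p = 0.247, limma). It was called lower without WT 1 (-1.34, adjusted p = 0.0197).

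**Figure D4:**
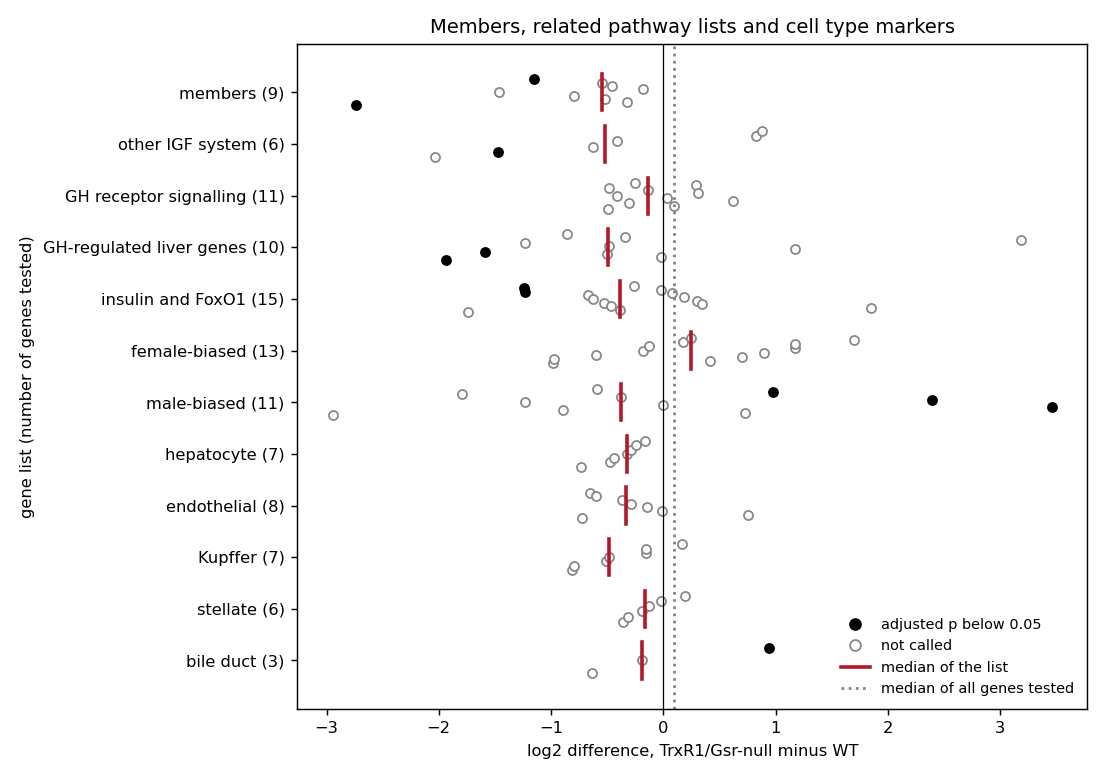
Log2 difference, TrxR1/Gsr-null minus WT (horizontal axis), for each tested gene of the members, the related pathway lists and the cell type markers (rows, number tested in brackets); filled points have an adjusted p under 0.05 (limma), the red bar is the list's median and the dotted line the median of all genes tested (0.096). The called members lie at -2.74 and -1.15, and the only called points right of 0 are 3 male-biased genes and Epcam.

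Cell type markers were described beside these results. All 7 tested hepatocyte markers had differences below 0, with a median of -0.32 and 0 called by limma (1 was lower at an unadjusted p under 0.05). Their summed level was 15.58 to 16.05 on the log2 scale in TrxR1/Gsr-null livers and 16.15 to 16.33 in WT livers, without overlap. Summed levels overlapped for the other types. Endothelial markers summed to 11.09 to 11.78 in TrxR1/Gsr-null livers and 11.36 to 11.88 in WT livers, Kupffer cell markers to 12.17 to 12.71 in TrxR1/Gsr-null livers and 12.46 to 13.27 in WT livers, and stellate cell markers to 12.16 to 12.57 in TrxR1/Gsr-null livers and 12.46 to 12.77 in WT livers. Of these markers, 0 of 8, 0 of 7 and 0 of 6 were called by limma, with 1, 3 and 0 lower at an unadjusted p under 0.05. With the replicate number as a block 1 endothelial and 1 Kupffer cell marker were called lower. Of 3 tested bile duct markers, whose summed level was 5.78 to 6.72 in TrxR1/Gsr-null livers and 6.06 to 6.998 in WT livers, Epcam was called higher (0.94, adjusted p = 0.0410, limma). All 4 of its WT values and that of TrxR1/Gsr-null 3 lay under the low-value limit, and with WT set at that limit it was at least 1.41-fold higher. Its call was kept in 2 of 8 fits with 1 liver left out, lost without TrxR1/Gsr-null 1, 2 or 4 or WT 1, 3 or 4 (limma adjusted p up to 0.125), and lost without both WT 3 and WT 4 (adjusted p = 0.147, limma). The markers Krt19, Krt7 and Cftr did not pass the low-value filter. The differences of the called members Igfbp2 (-2.74) and Igfals (-1.15) were larger in size than that of any tested hepatocyte marker (-0.73 to -0.16). So were those of Igfbp1 (-1.47) and Stat5b (-0.80), which were not called. Those of Socs2 (-0.55), Igfbp3 (-0.52), Igf1 (-0.45), Igfbp4 (-0.32) and Ghr (-0.18) lay within the range of these markers. The part of the hepatocyte share in the members' differences was not tested.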

How the data were processed

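Liver RNA of 4 TrxR1/Gsr-null and 4 WT mice was measured on Affymetrix arrays, 1 array per liver. The values are the authors' deposited log2 expression values, made with GCRMA per the submitters' processing notes, in which no version is given. GCRMA corrects background and normalizes between arrays, which can compress low values. Precision is limited by having 8 arrays.

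Of 22626 probe sets that are not controls, 20380 had 1 gene symbol, 691 several and 1555 none in the platform annotation. Per gene the probe set with the highest mean over the 8 arrays was used, those ending in _x_at only where no other existed. The lowest 40% of features by mean (limits 3.38 for genes and 3.03 for probe sets) were not tested, except where 4 or more arrays lay above the limit. TrxR1/Gsr-null minus WT was fitted with limma 3.58.1 in R 4.3.3 (lmFit, eBayes), Benjamini-Hochberg adjusted over all features tested, and called at an adjusted p under 0.05. Single members also had an exact two-sided permutation test. The fit was checked on simulated data.

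Named genes were all members, each list's called genes (up to 4 per direction) and its first 2 genes, and the 3 nearest profiles of each called member. Mup20, the first of the male-biased list, had no probe set of its own among those used. The members and lists were chosen with earlier results of these data known. Same-numbered livers deviated together (correlations 0.209 to 0.377 over probe sets in 4 pairs). Deviations were taken from each group's own mean, so with these correlations livers of unlike numbers must covary negatively on average. The labels give no pairing. The numbers were nonetheless fitted as a block, and blocked values are given where a call changed. No pair of arrays was identical (highest correlation 0.994).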

Additional observations from a re-analysis of the deposited data

Results flagged for a closer look

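In 4 of 88 groups of 4 livers, 1 liver stood apart from the other 3 by Dixon's test at the 95% level, where chance alone gives about 1 in 20 groups. TrxR1/Gsr-null 3 had 12.26 for Igf1 at its first probe set, against 11.49 to 11.57 in the other TrxR1/Gsr-null livers. WT 1 had 7.78 for Igfals, against 7.98 to 8.02 in the other WT livers. WT 4 had 4.44 for Igf1r, against 3.35 to 3.49 in the other WT livers, and 5.12 for Cish, against 4.10 to 4.25. WT 4 is also 1 of the arrays with a narrow value distribution, whose part was not tested.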

How the results depend on the processing

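All 9 members stayed below 0 in every alternative except replicates 3 and 4 alone, where Socs2 was 0.15. Igfbp2 was called in all 20 alternatives that tested it (-3.19 to -2.28). Igfals was called in 13 of 21 (-1.41 to -0.88), among the losses replicates 3 and 4 alone (adjusted p = 0.183, limma). Member genes called lower were 4 with the replicate block, 5 with array weights, 4 with the first 2 against the last 2 replicate numbers as a block, 1 without probe sets ending in _x_at, _s_at or _a_at (5 members tested, Igfbp2 not among them), 1 in replicates 3 and 4 alone, and 1 to 2 with 1 liver left out. Quantile normalization and median centring added Stat5b (adjusted p = 0.0285 and 0.0482, limma). With array weights Igf1 was called too (-0.64, adjusted p = 0.0329, limma). Member probe sets called lower were 4, 7, 6, 1 and 1 in the same 5 settings, 4 in replicates 1 and 2 alone, 1 without WT 3 and WT 4, and 1 to 2 with 1 liver left out. No member was called higher in any alternative.

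Over all genes, calls higher and lower were 578 and 428 with array weights, 647 and 334 with the first 2 against the last 2 numbers as a block, 162 and 30 in replicates 3 and 4 alone, and 454 and 240 with the replicate block. Without WT 3 and WT 4, 187 were higher and 138 lower. Quantile normalization gave 272 lower and shifted the median of all genes by -0.11. With 1 liver left out, 196 to 387 were higher and 75 to 134 lower. Pairing by the replicate block changed the calls of Igfbp1 and Stat5b among the members and of none of the other genes named by rule. The sign turned for Jak2 (main 0.04) under quantile normalization (-0.14), median centring (-0.030), array weights (-0.20), in replicates 1 and 2 alone (-0.30) and with 1 liver left out (-0.14 to 0.15; -0.08 without WT 4, -0.14 without TrxR1/Gsr-null 3, -0.0011 without TrxR1/Gsr-null 4). It turned for Stat5a under array weights (0.0064), without WT 3 and WT 4 (0.011) and in replicates 1 and 2 alone (0.11), for Cyp2b13 without WT 1 (-0.012; -0.012 to 0.89 with 1 liver left out) and in replicates 3 and 4 alone (-0.0090), and for Irs1 without TrxR1/Gsr-null 3 (-0.026; -0.026 to 0.45 with 1 liver left out). None of these was called. The causes were not tested. Signal limits Stat5a, Igf1r and Cish, whose values lay near the low-value limit, and Irs2, whose TrxR1/Gsr-null 1 and 2 values lay under it.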
